A study of Mus musculus with 2 samples.

Results

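Zbtb16 held 5 of the 3317 Foxp4 peaks in the list, and all 5 were in its introns 2 and 3, far from the start site. Foxp4 is a forkhead transcription factor, and chromatin immunoprecipitation with sequencing (ChIP-seq) maps the DNA to which it was bound. The members were the peaks for which the authors' list gives Zbtb16 as nearest gene, together with any peak within 100 kb of the gene body. Both parts of this rule gave the same 5 peaks. The members were chosen by the measured positions of the peaks, and the gene for its number of peaks and its highest score, so these values are a description and were not tested.

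Stromal vascular cells (SVF cells) of inguinal white fat from C57BL/6 mice were used, a mixed preparation of progenitors, fibroblasts and other non-adipocytes. They were grown for 3 days in 20% serum and then induced toward beige adipocytes for 48 h in 10% serum with 1 µM dexamethasone, 0.5 mM isobutylmethylxanthine, 5 µM troglitazone, 5 µg/ml insulin and 50 nM T3. The study held 1 Foxp4 ChIP library and 1 input library from cells given the same treatment; the input library was not analysed here. With 1 peak list no value has a replicate error, the read depth is unknown, and the induced cells were not set against uninduced ones.

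Zbtb16 encodes PLZF, a transcription factor that binds DNA through a row of zinc fingers. Its BTB domain pairs PLZF molecules and brings in corepressors, among them the NCoR and SMRT proteins and histone deacetylases. In many cell types the gene is strongly induced by glucocorticoids, the hormone class to which dexamethasone belongs. PLZF is best known for its roles in limb patterning, in spermatogonial stem cells and in innate-like T cells, and it has also been studied in brown fat cells.

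In the RefSeq table of assembly GRCm38.p6, which is the assembly of mm10, Zbtb16 spans chr9:48651797-48836225, a body of 184.4 kb. The distances in the authors' file place its start site at 48835945, inside the upper end of that body, so the gene is read toward lower coordinates. The strongest member lay at chr9:48744877-48745541 in intron 2 of 6, 90.7 kb downstream of the start site, and had a peak score of 530. The peak score is a whole number given by the authors' processing, with a median of 65 over the list. How it was computed is not stated in the labels or the file.

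Across exon 3 from that peak, in intron 3, lay the members with the next scores. The peak at chr9:48737029-48737736 scored 141 at 98.6 kb from the start site. The peak at chr9:48740158-48740526 scored 90 at 95.6 kb. These 3 peaks formed the core of the locus: they lay within 8.51 kb of DNA, 4.62% of the gene, around its middle.

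The other 2 members were weaker and stood apart from the core. The peak at chr9:48723518-48723878, also in intron 3, scored 51 at 112.2 kb from the start site. The peak at chr9:48791359-48791684, in intron 2, scored 55 at 44.4 kb and was the only member on an annotated repeat, a (TTTG)n simple repeat. Both scores were below the median of the list, and the other 3 were above it. From the start site to the repeat peak no peak was listed, and none lay in the last 71.9 kb before the 3' end. The promoter, just upstream of the start site, had no listed peak either.

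**Figure D1:**
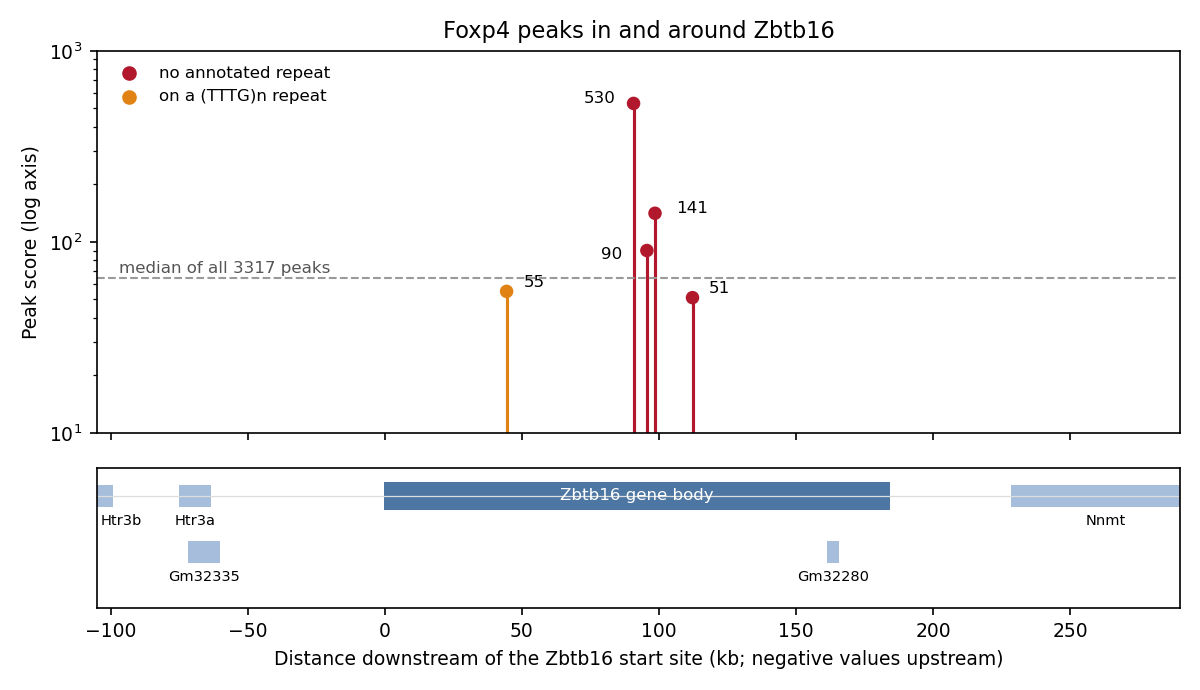
Peak score (log axis) of the 5 Foxp4 peaks against their distance in kb downstream of the Zbtb16 start site, with gene bodies drawn to scale beneath and a dashed line at the median score of the list. The peaks scoring 530, 90 and 141 stand together between 90.7 and 98.6 kb, and the repeat peak of 55 stands alone at 44.4 kb.

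The gaps between neighbouring members ran from 2.42 kb to 45.82 kb. The widest separated the strongest peak from the repeat peak, and the narrowest separated the peaks scoring 90 and 141. Runs of 3 successive peaks as tight as the core were rare, since the whole list held 9 of them within 8.51 kb, the one at Zbtb16 included. That length was set by the core itself after it was seen.

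Beyond the gene the surroundings were empty. On the lower side the next peak was 2.63 Mb away, named for Sik3, a kinase gene, with a score of 83. On the upper side it was 803 kb away, named for Gm11149, with a score of 56. The median gap between neighbouring peaks of the list was 292 kb, and 6.4% of the 3296 gaps were at least as wide as the lower one, against 26.9% for the upper one. The empty stretches hold 16 protein-coding genes on the lower side and 10 on the upper. The 100 kb limit of the rule therefore decided nothing, because the farthest member from an end of the gene was still inside it and the closest peak outside was 803 kb from the nearest member.

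The strongest Zbtb16 peak had rank 41 of 3317 by score, so that 1.21% of peaks scored higher. Its score was 8.15 times the median of the list. The members scoring 141, 90, 55 and 51 had ranks 484, 1030, 1937 and 2089. The locus thus combined 1 peak near the top of the list with others spread from the upper part to below its middle. Just above the strongest member stood peaks named for Limk1 (score 539) and Lnx1 (544), and just below it peaks named for Dnajc12 (525) and Clvs1 (512).

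**Figure D2:**
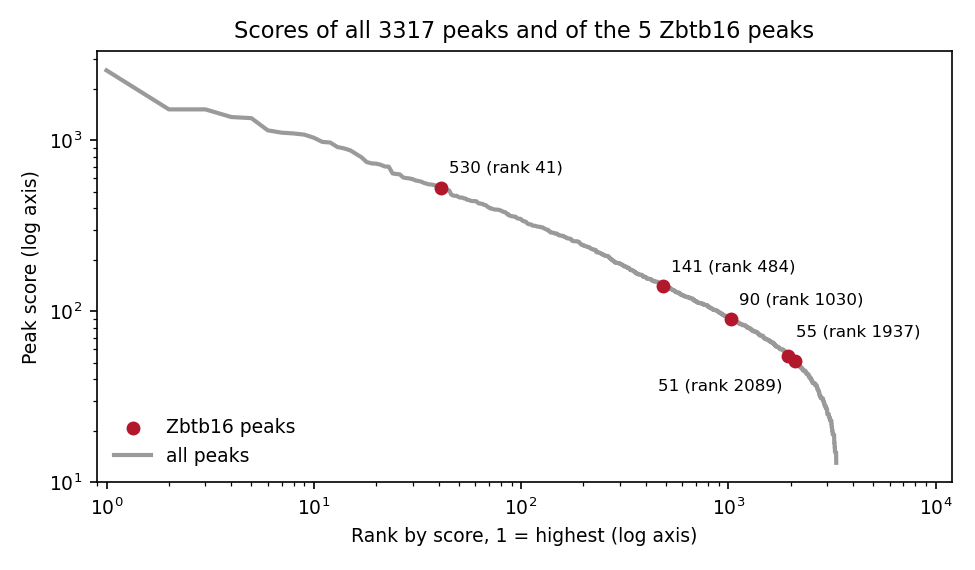
Score against rank for all 3317 peaks (grey line) and for the 5 Zbtb16 peaks (red points), both axes logarithmic. The Zbtb16 peaks sit at ranks 41, 484, 1030, 1937 and 2089.

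Within narrower sets of peaks the strongest member held about the same place. Of the 1271 intronic peaks 14 scored higher (1.1%), as did 9 of the 800 in introns after the first (1.12%). Of the 696 peaks at 44.4 to 112.2 kb from their start site, the range of the members, 6 scored higher (0.862%). On chromosome 9, 2 of 163 did (1.23%). These peak sets had medians of 65, 63.5, 62 and 61, close to that of the whole list.

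Of the 41 peaks scoring 530 or more, 15 were intronic and 17 lay on an annotated repeat. Of all 3317 peaks, 1271 were intronic and 2545 lay on no annotated repeat. The strongest Zbtb16 peak was intronic and carried no repeat annotation. When peaks on repeats were left out it ranked 24. The repeat peak in intron 2 was a low example of its kind: the list held 93 peaks on (TTTG)n or its complement, with a median of 94, and 19 of these scored below its 55.

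Within the gene the peaks with the highest scores were also the widest, but the order by width was not the order by score. The strongest peak was 665 bp wide and the peak scoring 141 was the widest, at 708 bp. The peaks scoring 90, 55 and 51 were 369, 326 and 361 bp wide, below the median width of 393 bp in the list. By width the strongest member ranked 248 and the peak scoring 141 ranked 192.

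The annotation within 100 kb of Zbtb16 holds Nnmt, Gm32280, Gm32335, Htr3a and Htr3b, and the file names none of them for a peak. Nnmt encodes nicotinamide N-methyltransferase, an enzyme that is abundant in white fat, and lies 44.1 kb beyond the 3' end of Zbtb16; its closest peak was the member scoring 51, at 115.9 kb. Htr3a and Htr3b, on the side of the Zbtb16 promoter, encode subunits of a serotonin-gated ion channel. Their closest peak was the repeat peak, at 107.5 kb and 143.3 kb. Gm32335, a long non-coding RNA gene that overlaps Htr3a in the table, had its closest peak 104.5 kb away.

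The naming of Zbtb16 as nearest gene depends on the annotation. Gm32280, a predicted protein-coding gene known from a model transcript, lies inside the body of Zbtb16. Measured to its start site, 4 of the 5 members were closer to Gm32280 than to the Zbtb16 start site, the strongest at 75.1 kb against 90.7 kb. The repeat peak was the exception, at 121.4 kb against 44.4 kb. All 5 lay outside Gm32280 and inside introns of the curated Zbtb16 transcript NM_001033324, whichever start site is counted.

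Few genes had as many peaks. Zbtb16 shared its 5 named peaks with 16 other genes of any type, and 14 genes had more. Among 21887 protein-coding genes 0.0959% were named for at least 5 peaks and 9.11% for at least 1. By gene body, 13 protein-coding genes (0.0594%) held at least 5 peaks. The highest score within Zbtb16 was also the highest found within any of these 13 genes, where the next were 463 in Fndc3b and 272 in Bicc1. Zbtb16 was chosen for its number of peaks and its highest score, so its place here describes that choice.

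Long genes have more room for peaks, so Zbtb16 was set beside genes of similar length. Of 691 protein-coding genes with bodies of 148 to 231 kb, Zbtb16 included, 541 held no peak and 116 held 1. Zbtb16 and Arid5b, a chromatin regulator gene that takes part in fat cell development, held 5 peaks each, so 0.289% of the genes reached that number. The other 690 genes held 0.291 peaks on average. The scores in Arid5b ran from 40 to 109, so its highest peak was below the 2 highest of Zbtb16. In the same range of length, Phldb2 held 4 peaks with scores up to 202, Svep1 held 4 up to 116 and Tgfbr3, a TGF-beta co-receptor gene, held 4 up to 56.

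**Figure D3:**
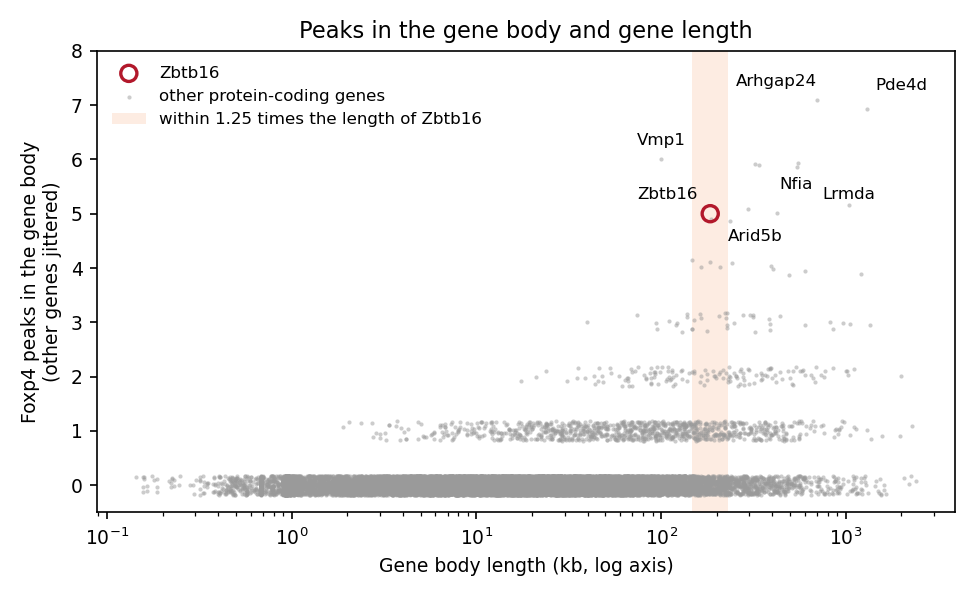
Number of Foxp4 peaks in the gene body against gene body length in kb (log axis) for protein-coding genes, with other genes jittered vertically and the shaded band marking lengths of 148 to 231 kb. Zbtb16 (red ring) holds 5 peaks in 184.4 kb, as does Arid5b, and genes with 6 or 7 peaks are longer except Vmp1.

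Per length of gene body Zbtb16 had 2.71 peaks per 100 kb. Among 4945 protein-coding genes of at least 50 kb it ranked 20 by this density. Of the 19 denser genes, 17 had 2 or 3 peaks in a shorter body. The exceptions were Vmp1, with 6 peaks at 6.0 per 100 kb, and Deptor, an inhibitor of mTOR signalling, with 4 peaks at 2.72 per 100 kb. The highest score within Vmp1 was 83.

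The genes most like Zbtb16, taken as those with 5 named peaks and the closest highest score, were Il1r1, Ctsc, Mir3092, Adam12 and Bicc1. This likeness rests on 2 numbers per gene in 1 library. Il1r1, the interleukin-1 receptor gene, had scores from 19 to 583, Ctsc, a lysosomal protease gene, from 19 to 476, and the microRNA gene Mir3092 from 39 to 463. Adam12, a metalloprotease gene, reached 313 and Bicc1, which encodes an RNA-binding protein, 272. The ratio of the strongest peak to the next was 3.76 at Zbtb16, and 4.45 at Il1r1, 4.37 at Ctsc, 3.65 at Mir3092, 3.29 at Adam12 and 1.28 at Bicc1. In all of these but Bicc1, 1 peak thus stood well above the others.

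The layout of the peaks differed between these genes. All 5 peaks lay in the gene body at Zbtb16 and Bicc1, 3 did at Il1r1, 1 at Adam12, and none at Ctsc or Mir3092. The 5 peaks named for Mir3092 were nevertheless all intronic, as at Zbtb16. Fndc3b, on chromosome 3 like Mir3092, held 5 peaks in its body with the same highest score of 463. Whether these are the peaks named for Mir3092 was not checked. Of the 16 other genes with 5 named peaks, 3 had all of them in the gene body. Peaks were packed more closely at Zbtb16 than at the others: its 5 peaks spanned 68.2 kb, and those of the other 16 genes spanned 91.7 to 899 kb. A peak within 3 kb of the start site occurred at 8 of the 16 and not at Zbtb16, and 3 of the 16 had their closest peak farther away than the 44.4 kb seen there.

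**Figure D4:**
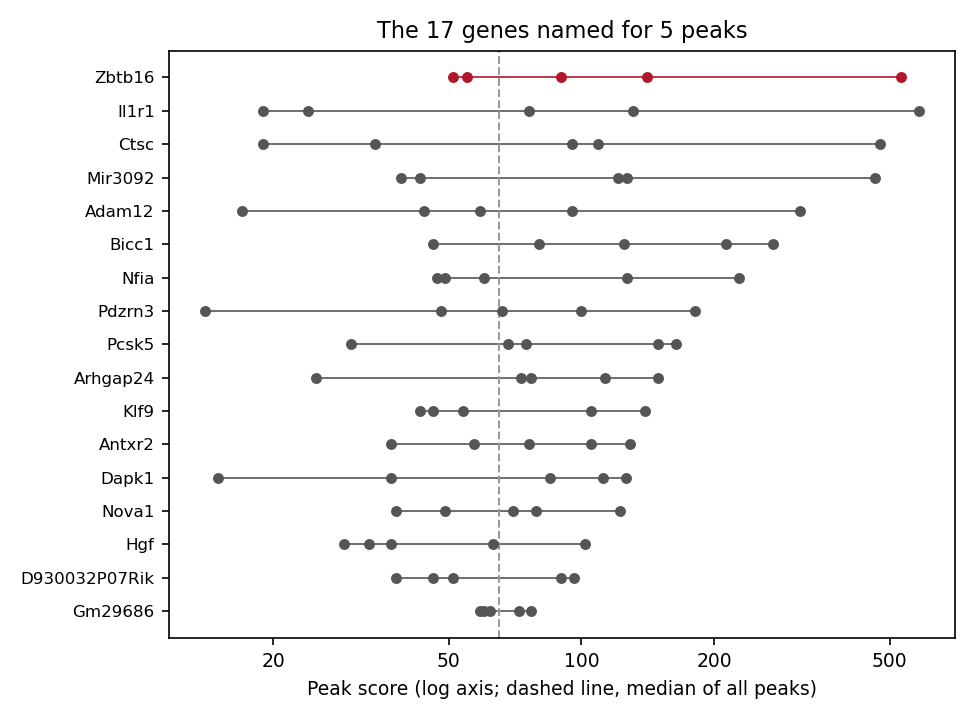
Scores (log axis) of the individual peaks of the 17 genes that the file names for 5 peaks, with Zbtb16 on top in red, the other genes below it by closeness of their highest score, and a dashed line at the median of all peaks. Zbtb16 has the second-highest maximum, 530 against 583 at Il1r1, and its lowest peak scores 51.

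Among 46 relatives of Zbtb16, the other BTB zinc finger genes found in the table, Bcl6 and Zbtb34 were named for a peak. This was 2 of 46, beside 9.11% of all protein-coding genes. With Zbtb16, which was chosen for its peaks, the count was 3 of 47 (6.38%). Bcl6, a transcriptional repressor gene that glucocorticoids also induce, had 1 peak in its intron 1, at -2.22 kb from the nearest start site, with a score of 426 and rank 65. Zbtb34 had 1 peak of score 88 at -13.3 kb. Zbtb20, a repressor gene of the same family, held 2 intronic peaks with scores of 221 and 109 that the file names for Gm15713 and Mir568.

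Genes for proteins that work with PLZF in repression and ubiquitylation were named for a peak in 4 of 19 cases (21.1%, against 9.11% of protein-coding genes). Hdac7, a class II histone deacetylase gene, had a promoter peak scoring 55, and Ep300, a histone acetyltransferase gene, had one scoring 64 at -0.8 kb. Runx1t1, which encodes the corepressor ETO, had peaks scoring 70 and 50, at 1.5 kb and -23.81 kb from the start site. Hdac4, another class II deacetylase gene, had an intronic peak of score 90. The corepressor gene Ncor1 held an intronic peak of score 35 that the file names for Ttc19. All of these scores were at or below 90, the score of the middle Zbtb16 peak.

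Zbtb16 was also 1 of 11 genes with a named peak among 24 genes known to be induced by glucocorticoids (45.8%, against 9.11%). The other 13 were named for none. Without Zbtb16, which was chosen for its peaks, 10 of 23 had a named peak. A named peak can lie far from its gene, and only some of the 11 genes held any peak in the gene body. Zbtb16, chosen in part for its highest score, had the highest of the 11, ahead of Bcl6 (426) and Errfi1 (277). Errfi1, which encodes an inhibitor of EGF receptor signalling, had its 2 highest peaks at -77.59 kb and -68.86 kb, so far from the start site as well. Pik3r1, a subunit gene of PI 3-kinase, had more peaks than Zbtb16, 9 in all, but with scores of 19 to 109 and mostly outside the gene. Klf9, a Kruppel-like factor gene, had 5 with scores of 43 to 139, and Klf15, of the same family, had 3 with scores of 69 to 141. Sgk1, a kinase gene, had 2 with scores of 126 and 109, and the promoter peak at Dusp1, a phosphatase gene, scored 47. Peaks within 3 kb of a start site were thus found at Bcl6, Klf15, Klf9 and Dusp1 and not at Zbtb16. This list was drawn up when the peaks at several of its members were known, and its count is a description.

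Promoter sequences from RefSeq (GRCm38.p6, 250 bases before to 50 after a start site) show what the bound start sites of these lists hold; those of the 5 intronic sites were not analysed here, nor was the Zbtb16 promoter. Among the listed genes, 5 such windows overlapped a peak, at Hdac7 (2 windows), Dusp1, Klf9 and Zbtb26, the last under a peak of score 38 named for Rabgap1. On both strands 7 motifs were searched: the forkhead motifs TGTTTAC and TGTTTGC, the glucocorticoid receptor palindrome ACANNNTGT and a longer form of it, its AGAACA element, the C/EBP motif TTGCNNAA, and TTTGTTT, letters that a (TTTG)n repeat such as that under the intron 2 peak contains. The 3 windows with a match are printed 5' to 3' in the direction of the gene, with the matches in capitals.
Hdac7, chr15:97831718-97832017, minus strand: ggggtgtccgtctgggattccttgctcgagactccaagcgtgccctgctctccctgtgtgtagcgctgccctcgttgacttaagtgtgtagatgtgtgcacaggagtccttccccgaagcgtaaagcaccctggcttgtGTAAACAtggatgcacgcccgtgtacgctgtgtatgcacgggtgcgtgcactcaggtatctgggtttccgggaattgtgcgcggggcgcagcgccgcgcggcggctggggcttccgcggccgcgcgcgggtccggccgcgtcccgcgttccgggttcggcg
Klf9, chr19:23140976-23141275, plus strand: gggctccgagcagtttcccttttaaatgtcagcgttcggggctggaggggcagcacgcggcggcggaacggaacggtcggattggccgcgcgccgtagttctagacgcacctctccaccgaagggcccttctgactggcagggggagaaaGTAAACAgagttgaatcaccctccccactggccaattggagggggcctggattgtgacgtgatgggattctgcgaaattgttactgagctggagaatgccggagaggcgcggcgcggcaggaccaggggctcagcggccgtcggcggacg
Dusp1, chr17:26508423-26508722, minus strand: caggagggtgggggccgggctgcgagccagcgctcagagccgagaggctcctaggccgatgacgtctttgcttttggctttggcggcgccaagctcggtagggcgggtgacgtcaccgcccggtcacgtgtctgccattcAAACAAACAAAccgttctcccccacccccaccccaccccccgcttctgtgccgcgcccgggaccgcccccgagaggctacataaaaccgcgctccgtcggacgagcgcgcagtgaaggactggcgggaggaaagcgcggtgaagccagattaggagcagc

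The Hdac7 window lay wholly within its peak and held TGTTTAC once, as its complement GTAAACA, starting at position -111 from the start site. The Klf9 window held the same letters at -100, outside the 86 bases that its peak covered. The Dusp1 window held TTTGTTT on the complementary strand at 2 overlapping places, at -110 and -106, both inside the peak. Of the 32851 promoter windows in the table, 3.65% hold TGTTTAC and 9.82% hold TTTGTTT on either strand, with 5.07% for TGTTTGC, 6.85% for ACANNNTGT, 0.475% for its longer form, 19.0% for AGAACA and 10.8% for TTGCNNAA. A match describes these letters only.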

How the data were processed

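Foxp4 ChIP-seq peaks of 1 library were analysed. Per the file headers, the authors annotated a narrowPeak file with HOMER's annotatePeaks.pl on mm10, and the submitters' processing notes name Bowtie2, Picard, SAMtools, MACS2 and deepTools 3.3.0 without roles or settings. The deposited peak score is the list's only measure of strength. The part of the input in peak calling is not stated there. Since its formula is not stated, it was used only to rank and describe peaks within this list.

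All 3317 peaks were kept and 1 line without a peak was dropped. A peak's place is its midpoint, and its distance to the start site and nearest gene are the file's. Gene bodies came from RefSeq GRCm38.p6. Ranks give ties the best rank, and density means peaks in the body per 100 kb. The computations ran in Python 3.11.15 with pandas 2.3.3 and were tested on simulated peaks. With 1 library, no test was run.

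The members and the 3 gene lists were chosen with earlier results of these data known. Named were Zbtb16, the genes within 100 kb, the 5 likest genes, and list members with at least 2 peaks or 1 within 3 kb. Genes outside that rule (Sik3, Gm11149, the neighbours in rank, genes with many peaks or of similar length, Zbtb34, Zbtb20, Zbtb26, Rabgap1, Hdac4 and Ncor1) were named after their values were seen. The BTB symbol Zbtb47 was not matched.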

Additional observations from a re-analysis of the deposited data

How the results depend on the processing

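Of 27 alternative settings over the 5 results, 19 stayed within 1.5 times the reported value. The number of peaks at Zbtb16 was 5 with a score of at least 30, with peaks under 1 kb apart joined, with windows of 50 and 200 kb and with any overlap of 1 bp, and 4 without repeats. It was 3 by name, in the window and in the gene body when only peaks at or above the median score were kept, since 2 members lie below it. The rank of the strongest peak was 24 without peaks on repeats and 248 by width. Zbtb16 ranked 15 among genes by number of named peaks, 8 by peaks in the gene body, 9 with a score of at least 30, and 26 by density among 5959 genes of all types. No paired analysis was possible because the study has 1 ChIP library. Depth is unknown, and a weaker site at the promoter would not be seen below the authors' threshold.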
